A study of Mus musculus with 2 samples.

Results

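Mir191 and Mir425 are neighbouring mouse genes for the microRNAs miR-191 and miR-425. They were taken by symbol from the 2202 miRNA genes of each deposited table, and both were found. The libraries came from C2C12, a myoblast line of C3H mouse origin that was started from injured thigh muscle. Total RNA was used, and the labels give a size range of less than 30 nucleotides. The labels number the libraries as biological replicates 1 and 2 of 1 group. They name no treatment, agent, time or culture stage, so the comparison here is between libraries and not between conditions. Each library has a biosample of its own in the labels, with no culture date. A p-value on their reads compares these libraries with counting error only.

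A microRNA is cut from a hairpin in a longer primary transcript, first by Drosha in the nucleus and then by Dicer in the cytoplasm. The mature strand guides an Argonaute protein to mRNAs, mainly through its seed, bases 2 to 8. Hairpins in the same primary transcript share their transcription but are cut and turned over separately. miR-191 and miR-425 are found in many tissues and are often raised in tumours. Both have been used as steady references to normalise other microRNAs, miR-191 the more widely.

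The mature strands are shown because the seed decides which mRNAs each can pair with. Capitals mark the seed, and the sequences are those of RefSeq on GRCm38.p6, in which both genes were matched by symbol.
miR-191-5p: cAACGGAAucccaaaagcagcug
miR-191-3p: gCUGCACUuggauuucguuccc
miR-425-5p: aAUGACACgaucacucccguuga
miR-425-3p: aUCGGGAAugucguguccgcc
miR-489-3p: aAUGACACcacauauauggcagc
The 4 strands of the pair have 4 different seeds. The counts are per gene, so reads of the 5p and 3p strands of a hairpin cannot be told apart here. Among the 1738 mature sequences of that table, the only strand of another gene with any of these seeds is miR-489-3p, whose seed is that of miR-425-5p. miR-489 is known from quiescent muscle satellite cells, and its gene lies within Calcr. Mir489 had 0 reads in both libraries, which allows up to 0.108 reads in replicate 1 and 0.2 in replicate 2 per 1000000 counted reads.

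Both hairpins lie on the plus strand of chromosome 9 on mm10. Mir191 (ENSMUSG00000105497.1) spans positions 108568319 to 108568392 and has 74 bases, and Mir425 (ENSMUSG00000065579.1) spans 108568777 to 108568861 and has 85 bases. Their starts are 458 bases apart. Their base composition is alike, with 54.1% G and C in each hairpin. The longest stretch that either shares with a miRNA gene elsewhere is 12 bases for Mir191 and 13 for Mir425. Stretches of at least 20 bases were counted as near-identical copies, and neither gene has such a copy, so reads of the pair do not have to be split with another hairpin of the tables.

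The pair is usually described as lying in an intron of Dalrd3, a gene whose human counterpart takes part in tRNA methylation. In the GENCODE M21 annotation used for the counts, Dalrd3 starts at 108569886, which is 1024 bases past the end of Mir425, so neither hairpin lies in it. Both lie instead in the long noncoding RNA gene 4833445I07Rik (108567533 to 108569174, plus strand). Its 1-exon transcript holds both hairpins in the exon. In its 2-exon transcript Mir191 is intronic, and that transcript ends before Mir425 starts. RefSeq on the same assembly starts Dalrd3 at 108567484, upstream of Mir191, so both hairpins lie within its span there. The exons of that RefSeq gene were not used here. No long RNA was measured in these libraries, so neither host transcript has a value.

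**Figure D1:**
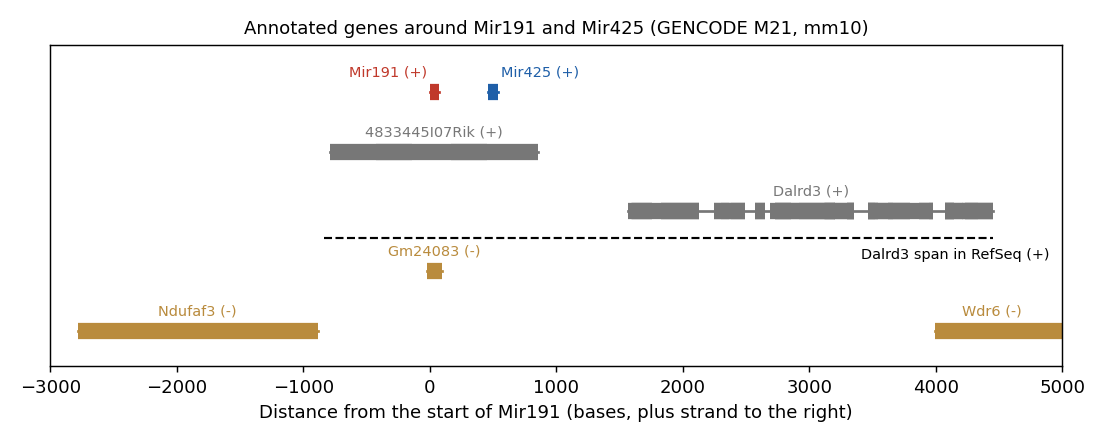
Annotated genes around the pair, drawn by distance in bases from the start of Mir191, with the strand after each name. Boxes on 4833445I07Rik and Dalrd3 are all annotated exons, other genes are drawn by their whole span, and the dashed line is the RefSeq span of Dalrd3; both hairpins sit inside 4833445I07Rik and before the GENCODE start of Dalrd3.

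Mir191 was counted with 82372 reads in replicate 1 and 25582 in replicate 2, and Mir425 with 41828 and 24505. The values come from the column for the gene's own strand, and levels are given per 1000000 such reads on all miRNA genes of the library (CPM). Each read was taken to be a whole small RNA and not a fragment, so levels were not divided by length. The counts give no read lengths, so this was not tested. The libraries held 27661907 such reads in replicate 1 and 15025315 in replicate 2. Mir21a, an abundant miRNA of proliferating cells, took 23.1% of them in replicate 1 and 53.5% in replicate 2. This left a smaller share of replicate 2 to all other genes together. The muscle identity was checked on the skeletal muscle miRNA Mir206, which had 2559 CPM in replicate 1 and 1028 in replicate 2. Of 11 muscle genes 4 reached 1 CPM in both libraries, and 7 of 19 markers of blood, endothelium, epithelium, liver and neurons did. These other markers summed to at most 220 CPM for any cell type, most of it Mir142, a blood gene. The endothelial gene Mir126a had 213 CPM in replicate 1 and 134 in replicate 2, more than any muscle gene but Mir206. Mir133b, the next muscle gene and one with near-identical copies, had 88.0 and 20.4 CPM.

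By library total, Mir191 stood at 2978 CPM in replicate 1 (exact 95% binomial interval 2958 to 2998) and 1703 CPM in replicate 2 (1682 to 1724). Mir425 stood at 1512 CPM (1498 to 1527) and 1631 CPM (1611 to 1651). The means were 2340 ± 902 CPM for Mir191 and 1572 ± 84.0 CPM for Mir425 (SD, n = 2). Read per library total, Mir191 was thus 1.75-fold higher in replicate 1, and Mir425 differed by 1.08-fold toward replicate 2. The intervals hold the counting error of reads alone. PCR copies of a molecule were not told apart, so they can be too narrow for the count of molecules. In bulk RNA such as this, fewer cells with a miRNA and less of it per cell cannot be told apart.

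Among the 2202 genes Mir191 ranked 49 in replicate 1 and 48 in replicate 2, and Mir425 ranked 64 and 49. Together they took 0.449% of the counted reads in replicate 1 and 0.333% in replicate 2. By mean level Mir191 was number 48, between Mir532 at 2375 ± 1069 CPM and Mir872 at 2294 ± 1087 CPM (SD, n = 2). The next genes were Mir24-2 above, at 2476 ± 1311 CPM, and Mir18 below, at 2236 ± 259 CPM (SD, n = 2). Mir425 was number 59, between Mir298 at 1597 ± 301 CPM and Mirlet7f-2 at 1550 ± 769 CPM (SD, n = 2). Mir615, a Hox-cluster miRNA, came above at 1609 ± 613 CPM and Mir145a, known from smooth muscle, below at 1446 ± 119 CPM (SD, n = 2). The range of the libraries of each of these 8 neighbours overlapped that of the member, so the order within these stretches is not settled. Mir24-2 and Mirlet7f-2 have near-identical copies, which makes their own levels uncertain.

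**Figure D2:**
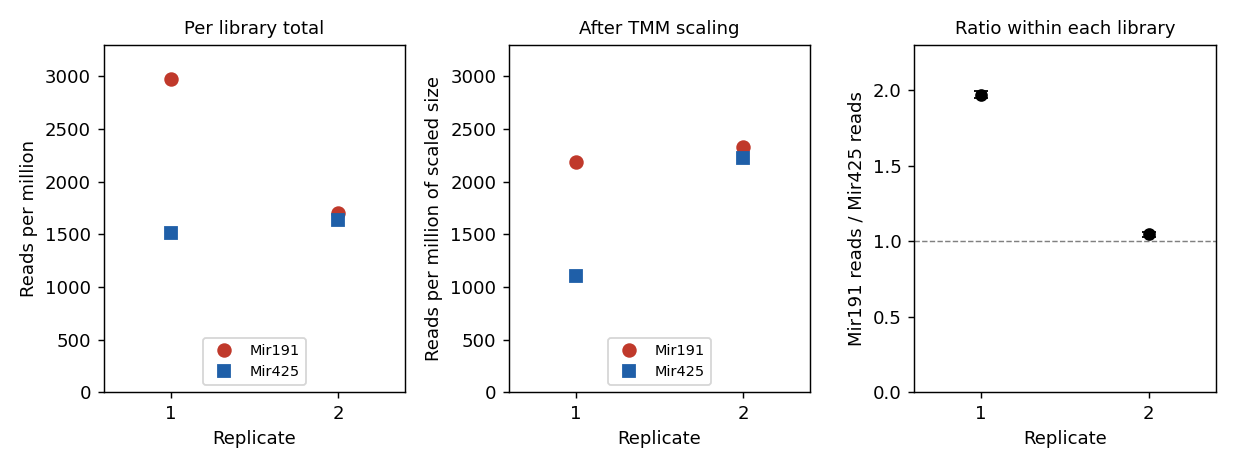
Levels of Mir191 (circles) and Mir425 (squares) in each replicate, in CPM of the library total (left) and of the TMM-scaled library size (middle), with the ratio of their reads and its exact 95% binomial interval (right). By totals Mir191 differs between replicates, at 2978 and 1703, while after scaling Mir425 does, at 1108 and 2226; the ratio is 1.97 and 1.04.

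The ratio of the pair needs no scaling, because both counts come from the same library. There were 1.97 Mir191 reads per Mir425 read in replicate 1 (exact 95% binomial interval 1.95 to 1.99) and 1.04 in replicate 2 (1.03 to 1.06), a mean of 1.51 ± 0.654 (SD, n = 2). Mir191 thus made up 66.3% of the pair's reads in replicate 1 and 51.1% in replicate 2. Mir191 had the more reads of the pair in both libraries, by a wide margin in replicate 1 and a narrow margin in replicate 2. Whether reads of the 2 genes stand for molecules at the same rate was not tested, so this gives no order of abundance. The ratio differed 1.89-fold between the libraries (95% interval 1.85 to 1.93 from the counts), and the two-sided Fisher's exact test on the 4 counts gave a p below 1e-300. This test compares the reads of the libraries and holds no spread between replicates.

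Stability was then measured on a scale that takes most genes to be level between the libraries, which is an assumption. Trimmed-mean (TMM) scaling lowered all log2 ratios of replicate 1 over replicate 2 by 0.90 relative to library totals. On this scale Mir191 stood at 2182 scaled CPM in replicate 1 and 2324 in replicate 2, and Mir425 at 1108 and 2226. Mir191 then lay close together and Mir425 far apart, the reverse of the picture by totals. The log2 ratio of replicate 1 over replicate 2 was -0.09 for Mir191 (counting SE 0.010, adjusted p = 8.28e-18, exact binomial test with Benjamini-Hochberg adjustment). For Mir425 it was -1.01, a level 2.01-fold higher in replicate 2 (counting SE 0.012, adjusted p below 1e-300, exact binomial test with the same adjustment).

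Both members passed this test and were lower in replicate 1, as were 137 of the 556 genes tested (24.6%). A further 94 genes (16.9%) were higher in replicate 1, which makes 41.5% called in all. At this depth the test resolves very small differences, so the size is set beside the spread of other abundant genes. Over the 71 genes with a mean of at least 1000 CPM, the median log2 ratio was 0.01, the median absolute log2 ratio 0.24 and the SD 0.54. Mir191 lay nearer to 0 than the median abundant gene, with 15 of the 71 genes nearer still. Mir425 lay at -1.88 SD counted from 0, with 63 of the 71 genes nearer to 0 and 7 with a lower log2 ratio. Over the 138 genes with a mean of at least 100 CPM, Mir425 lay at -1.45 SD from 0. The difference of Mir191 was therefore small beside the spread between these libraries and that of Mir425 was on its outer part.

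**Figure D3:**
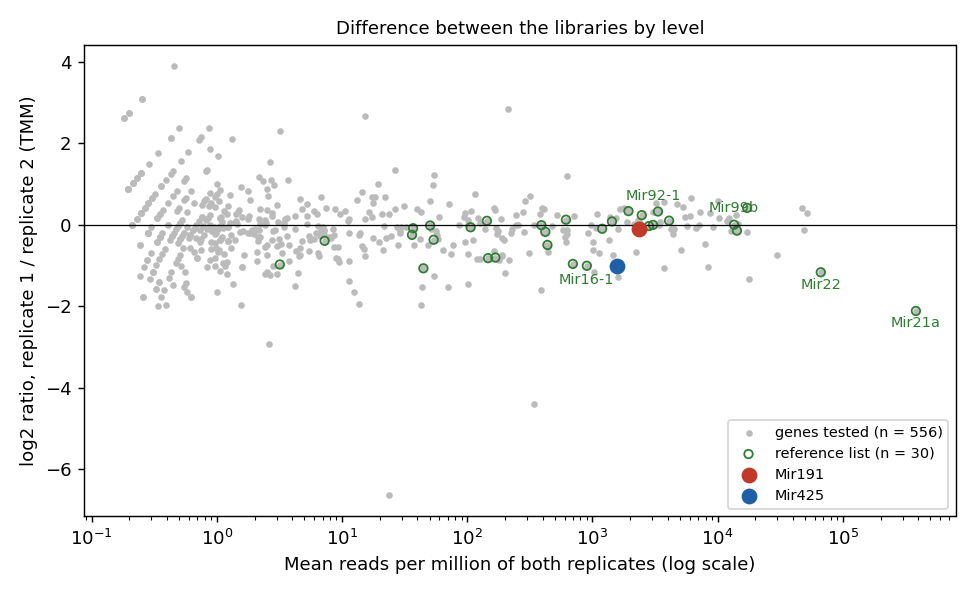
Log2 ratio of replicate 1 over replicate 2 after TMM scaling against the mean level (log axis) for the 556 genes tested, with the reference list as open circles. Mir191 (-0.09) sits in the band of abundant genes near 0, and Mir425 (-1.01) sits below it beside Mir16-1, with Mir22 and Mir21a farther down.

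A scaling adds the same constant to the log2 ratio of every gene, so it sets which member lies near 0 and cannot alter the gap of 0.92 between them. With DESeq2 size factors, the log2 ratio was -0.03 for Mir191 and -0.94 for Mir425. With totals that leave out Mir21a, it was 0.08 for Mir191 and -0.84 for Mir425. With plain library totals it was 0.81 for Mir191 and -0.11 for Mir425. Mir425 was lower in replicate 1 under all 4 of these scalings, whereas Mir191 changed sign. On the plain totals the median of the 71 abundant genes was itself at 0.91, so Mir191 moved with the bulk of abundant genes and Mir425 did not. No other abundant gene lay nearer to 0 than Mir425 on that scale. The calls over all genes were 94 higher and 137 lower in replicate 1 with TMM, 107 and 124 with DESeq2 size factors, 304 and 26 with totals (59.4% called), and 138 and 94 with totals without Mir21a (41.7% called). Both members were among the genes called under each of the 4 scalings.

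**Figure D4:**
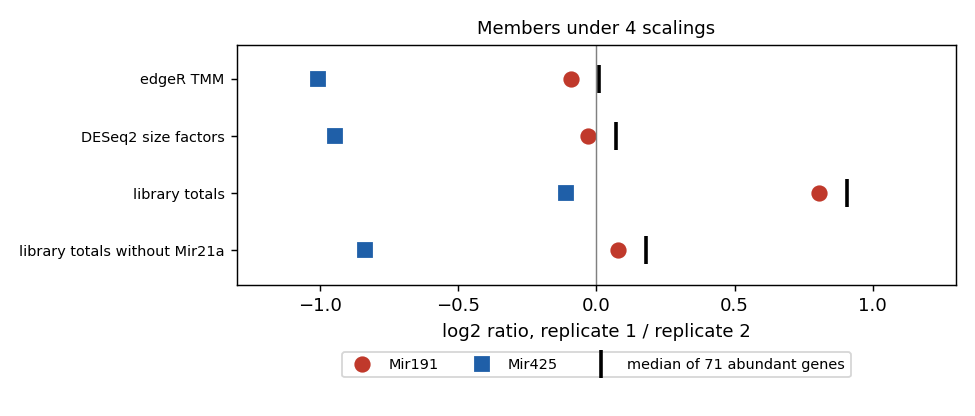
Log2 ratio of replicate 1 over replicate 2 for Mir191 (circles), Mir425 (squares) and the median of 71 abundant genes (bars) under 4 scalings. Mir191 stays near the median in every row, and Mir425 lies 0.92 to the left of Mir191 in each; by totals Mir425 is at -0.11 and the median at 0.91.

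The libraries were also scaled to each member, as is done with a reference gene. This was chosen after the ratios had been seen. Scaled to Mir191, 228 of 556 genes (41%) were called, 116 higher and 112 lower in replicate 1, and every log2 ratio moved by 0.09 against TMM. Scaled to Mir425, 348 genes (62.6%) were called, 327 higher and 21 lower in replicate 1, and every log2 ratio moved by 1.01. The geometric mean of the pair gave 266 calls (47.8%), 214 higher and 52 lower in replicate 1, with a move of 0.55. Each of these scalings sets its member, or their mean, to a log2 ratio of 0, so the balance of calls follows from the ratios given above and is no separate result.

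Other miRNAs that have been used as references were set beside the pair. All 30 genes of this list were matched and tested, and 22 were called with TMM, 7 higher and 15 lower in replicate 1. Over all 556 genes tested 231 were called (41.5%). The median log2 ratio of the list was -0.09, against -0.09 over all 556 genes tested. The list was drawn up with earlier results of these data known, and abundant genes pass the test more readily. Of the 23 genes on it with a mean of at least 100 CPM, 6 lay nearer to 0 than Mir191 and 21 nearer than Mir425. By totals 9 lay nearer to 0 than Mir191 and 4 nearer than Mir425.

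Among these 23 genes, the nearest to 0 after TMM scaling were Mir92-1 of the Mir17 cluster, Mir99b of the let-7e cluster and Mir25 of the Mir106b cluster. Mir99b had 17600 CPM in replicate 1 and 9427 in replicate 2, a log2 ratio of 0.0030 (counting SE 0.0044). Mir25 had 508 and 274 CPM, a log2 ratio of -0.01 (counting SE 0.026), and Mir92-1 had 3962 and 2129 CPM, a log2 ratio of -0.0016 (counting SE 0.0092). The farthest of the 23 were Mir21a at -2.11, Mir22 at -1.16 and Mir16-1 at -1.004. miR-16 is itself a common reference and was next to Mir425. Mir92-1 and Mir16-1 share long stretches with copies, so their counts are uncertain.

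The genes whose log2 ratio came nearest to that of each member were sought among the 138 genes with a mean of at least 100 CPM. With 2 libraries this likeness rests on a single ratio. For Mir191 they were Mir350 at -0.09, Mir361 at -0.10 and Mirlet7e at -0.10. Mir350 had 1363 CPM in replicate 1 and 777 in replicate 2, Mir361 had 1519 and 872 CPM, and Mirlet7e had 5409 and 3104 CPM. For Mir425 they were Mir16-1 at -1.004, Mir30a at -1.03 and Mir16-2 at -0.96. Mir30a had 8067 CPM in replicate 1 and 8814 in replicate 2, and Mir16-1 had 868 and 935 CPM. These genes, like Mir425, held nearly the same CPM in both libraries while most abundant genes had less in replicate 2. Mir16-2 had 683 CPM in replicate 1 and 712 in replicate 2, but the Mir16 genes carry the same mature strand and are not separate evidence.

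The change of the ratio was set beside that of other neighbouring hairpins. There were 52 pairs of miRNA genes on the same strand with starts at most 1000 bases apart and a mean of at least 10 CPM for each gene. Pairs of the same cluster share genes. The log2 ratio of the upstream over the downstream gene differed between the libraries by 0.92 for Mir191 over Mir425, against a median absolute difference of 0.40 over the 52 pairs. It was smaller in 44 other pairs and at least as large in 7. Among the 27 pairs without near-identical copies it was smaller in 22 and at least as large in 4. The pair thus moved more than most neighbours but not beyond their range. Of all 2485 pairs that the 71 abundant genes can form, wherever they lie, 22.5% differed at least as much. Their median absolute difference was 0.41, but these genes have a mean of at least 1000 CPM, unlike the neighbours. With a mean of at least 100 CPM for each gene, 4 others of 37 neighbour pairs differed at least as much. Of all pairs at that level, 25.1% did. The median absolute differences there were 0.40 for neighbours and 0.49 for all pairs.

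The 3 smallest shifts were in Mir19a over Mir92-1 of the Mir17 cluster, with a ratio of 0.00706 in replicate 1 and 0.00713 in replicate 2, in Mir106b over Mir25, with 8.74 and 8.64, and in Mir23a over Mir24-2, with 21.2 and 20.5. Their log2 shifts had counting SEs of 0.109, 0.027 and 0.011, so the order among them is not resolved. The pairs that moved most were Mir298 over Mir296, an imprinted pair, with 1.37 and 7.65, then Mir301b over Mir130b, with 0.00617 and 0.0229, and Mir15a over Mir16-1, with 6.36 and 2.13. Mir298 over Mir296 and Mir301b over Mir130b moved toward the downstream gene in replicate 1, whereas Mir191 over Mir425 and Mir15a over Mir16-1 moved toward the upstream gene. Mir92-1, Mir23a, Mir24-2 and Mir16-1 have near-identical copies, so the ratios with them are uncertain.

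**Figure D5:**
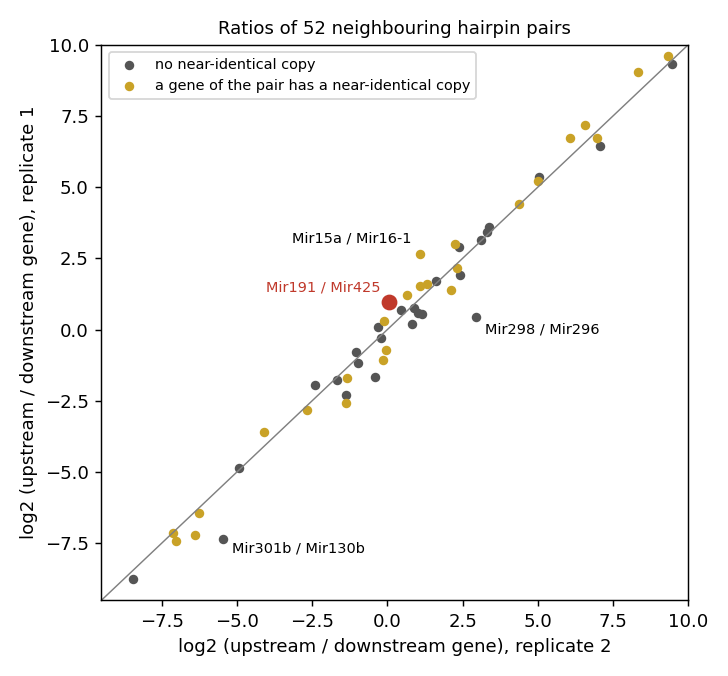
Log2 ratio of the upstream over the downstream gene in replicate 1 against replicate 2 for 52 neighbouring hairpin pairs; the line marks equal ratios. Mir191 over Mir425 lies above the line by 0.92, Mir15a over Mir16-1 lies farther above it, and Mir298 over Mir296 and Mir301b over Mir130b lie below it.

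The strand of the reads decided whether Mir191 was seen at all. On the minus strand the annotation holds Gm24083, an unnamed miRNA prediction of 120 bases at 108568295 to 108568414, which covers the whole of Mir191. In the hairpin of Mir191 capitals mark the mature strands, and in Gm24083 capitals mark the bases that are the reverse complement of that hairpin.
Mir191: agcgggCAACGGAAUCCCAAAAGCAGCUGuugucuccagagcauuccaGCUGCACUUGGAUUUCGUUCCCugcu
Gm24083: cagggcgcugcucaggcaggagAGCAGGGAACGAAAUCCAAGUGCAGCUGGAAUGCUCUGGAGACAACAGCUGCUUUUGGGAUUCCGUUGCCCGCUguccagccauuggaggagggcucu
In the column that ignores strand, Mir191 had 0 reads in both libraries, against 82372 in replicate 1 and 25582 in replicate 2 on its own strand. Gm24083 had 0 reads on its own strand in both libraries, which allows up to 0.108 CPM in replicate 1 and 0.2 CPM in replicate 2. In the opposite-strand column it had 82375 and 25583 reads, 3 and 1 more than Mir191 itself. Mir425 has no miRNA gene over it, and it had 41828 reads in replicate 1 and 24505 in replicate 2 in both the column without strand and that of its own strand. It had 0 reads on the opposite strand in both. Per the strand columns, all reads of the pair thus lay on the strand of the named hairpins.

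Mir191 shares this with other genes. Of the 64 miRNA genes that another overlaps on the opposite strand, 30 had reads in replicate 1 and 33 in replicate 2. Of these, 27 and 31 had 0 reads in the column without strand. By mean level Mir191 was the fifth of the 64, after Mir378a, Mirlet7e, Mir30e and Mir24-2. Its reads equal 9.77% of the reads listed as ambiguous without strand in replicate 1 and 10.5% in replicate 2.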

How the data were processed

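MicroRNA-seq was measured in 2 libraries of C2C12 cells. The deposited tables hold raw read counts per miRNA gene in 3 columns (either strand, strand of the gene, opposite strand), as the authors made them. Build mm10 and GENCODE M21 are named in the deposited readme files, while aligner and counter were not given in the sources used. Reads with several places were listed outside the genes, at 33.4% of all reads in replicate 1 and 22.8% in replicate 2. Genes with copies can therefore be understated, and not equally in both libraries. The 4 rows that name no gene held 49.7% of replicate 1 and 38.8% of replicate 2 and were left out.

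All 2202 identifiers matched GENCODE M21. Scaling used edgeR 4.0.16 (TMM) and DESeq2 1.42.0 (size factors) under R 4.3.3. Each of 556 genes with at least 10 counts over both libraries had a two-sided exact binomial test (scipy 1.17.1) with Benjamini-Hochberg adjustment and a threshold of 0.05, and a log2 ratio with a prior count of 0.5. A count of 0 was taken to allow 3 counts. The test was first run on simulated data with counting noise only, which cannot show how it behaves with spread between replicates. Named genes were the members and overlapping genes, the 2 nearest above and below by level, the 3 nearest by log2 ratio, the 3 smallest and 3 largest differences among reference genes with a mean of at least 100 CPM and among neighbour pairs, Mir21a and muscle and other cell markers. Mir489 was named for its seed after its values were seen. The members and lists were chosen with earlier results of these data known.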

Additional observations from a re-analysis of the deposited data

How the results depend on the processing

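No paired analysis was possible because both libraries belong to 1 group. The log2 ratio of Mir191 between replicate 1 and replicate 2, -0.09 with TMM, changed sign with library totals (0.81), with totals without Mir21a (0.079), and, chosen after seeing the data, when scaled to Mir425 (0.92) or to the geometric mean of the pair (0.46). The cause was not tested. With DESeq2 size factors or other count filters it lay between -0.10 and -0.03. The log2 ratio of Mir425 kept its direction and passed the test under the alternatives run, from -1.01 to -0.11, apart from scaling to Mir425 itself, which sets it to 0. The count of genes called was 231 of the 556 tested with TMM, 348 scaled to Mir425, and 228 to 330 under the other scalings. Count filters and the strand column also changed how many genes were tested. The calls were 231 of 804 genes without a filter and 216 of 299 with at least 100 counts. With reads of either strand 217 of 537 genes were called. The share called was thus larger with a stricter filter. Per 1000000 counts without Mir21a the levels were 3766 for Mir191 and 2737 for Mir425, and per 1000000 reads of the library 1269 and 879. Reads of either strand gave Mir191 a level of 0. Leaving out each replicate gave 1703 to 2978 CPM for Mir191, 1512 to 1631 CPM for Mir425 and a ratio of 1.04 to 1.97. With 2 libraries a log2 ratio cannot be had without either. The reference list had 19 calls of 27 genes tested with reads of either strand, and 24 to 28 of 30 under the other alternatives. The neighbour pairs had a median absolute difference of 0.32 to 0.52. The number of libraries, not their depth, limits the precision for these genes.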
